A study of Mus musculus with 4 samples.

Results

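The following describes 10 genes of mouse chromosome 11: Cuedc1, Med1, Scpep1, Slfn5, Trim25, Tubd1, Tmem100, Bcl11a, Myo1g and Prkca. They were chosen because they differed between Jmjd3-/- and wild-type embryos on these same arrays, so their genotype differences are given as a description and support no test. These 10 genes were among 1146 tested chromosome 11 genes and 13583 tested genes in all, and they are covered by 17 probes. The RNA is of the posterior part of embryos taken at embryonic day 9.5, bred by crossing Jmjd3+/- mice with each other. One group was homozygous for the Jmjd3 mutation (Jmjd3-/-, replicates 1 and 9) and the other was wild-type (replicates 3 and 4), with 2 arrays per genotype and replicate numbers as labelled. The design text calls the RNA samples of a genotype independent and does not say whether each is 1 embryo, so p-values measure only the spread between these samples. Neither strain nor mutant allele is described in the sources used here.

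Jmjd3, now named Kdm6b, lies on chromosome 11 itself and encodes a demethylase that removes the repressive trimethyl mark from lysine 27 of histone H3, a mark found mostly at promoters rich in CG dinucleotides. In an intercross, alleles near a mutation tend to be inherited with it, so position along chromosome 11 is part of the description of these genes. Linked alleles and effects of the mutation cannot be told apart in this design. The members have no common pathway. Slfn5 and Trim25 belong to the interferon response, Med1 is a subunit of the Mediator complex that links transcription factors to RNA polymerase, and Bcl11a encodes a zinc finger repressor of embryonic globin genes that also acts in neurons. Tubd1 encodes delta-tubulin of the centriole, Myo1g a class I myosin of blood cells, Prkca a protein kinase C, Tmem100 a membrane protein of arterial endothelium downstream of the ALK1 receptor, Scpep1 a serine carboxypeptidase, and Cuedc1 a protein with a ubiquitin-binding CUE domain.

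The RefSeq promoter table for GRCm38.p6 held 9 of the 10 members, with 10 windows in all because Cuedc1 has 2 starts; Tmem100 was not matched. The windows considered are the 250 bases before each start. Cuedc1 is shown because it had the largest difference of the members, and Bcl11a because both of its probes were lower; capitals mark CG dinucleotides, and each sequence runs 5′ to 3′ on the strand of the gene.
Cuedc1, first start, chr11:88098896-88099145, plus strand: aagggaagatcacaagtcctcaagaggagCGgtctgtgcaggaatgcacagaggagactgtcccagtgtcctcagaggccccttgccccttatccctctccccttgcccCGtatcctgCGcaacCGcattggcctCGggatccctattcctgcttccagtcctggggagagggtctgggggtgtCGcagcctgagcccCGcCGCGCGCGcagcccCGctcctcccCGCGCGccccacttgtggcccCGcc
Cuedc1, second start, chr11:88169315-88169564, plus strand: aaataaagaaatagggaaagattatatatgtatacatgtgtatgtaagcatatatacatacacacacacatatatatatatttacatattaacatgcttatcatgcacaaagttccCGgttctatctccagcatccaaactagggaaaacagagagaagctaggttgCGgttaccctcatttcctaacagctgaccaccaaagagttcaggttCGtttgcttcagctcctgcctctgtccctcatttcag
Bcl11a, chr11:24080445-24080694, plus strand: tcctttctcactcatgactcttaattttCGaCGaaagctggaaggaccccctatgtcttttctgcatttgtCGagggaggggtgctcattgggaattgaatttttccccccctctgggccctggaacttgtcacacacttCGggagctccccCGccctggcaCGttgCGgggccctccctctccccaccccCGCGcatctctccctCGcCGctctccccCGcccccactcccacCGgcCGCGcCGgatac
The first Cuedc1 window held 16 CG dinucleotides and the second held 3, whereas the Bcl11a window held 16. Over all 32851 windows of the table the median was 6, and the middle of the distribution ran from 2 to 16. Among the other members the count was lowest for Myo1g, with 2, and highest for Prkca, with 39. The higher genes Slfn5, Scpep1, Trim25 and Med1 had 6, 10, 12 and 18, and the lower gene Tubd1 had 20, so the counts of higher and lower members overlapped.

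Slfn5 is shown because it was the 1 member window of 10 with the letters GAAA, any 2 bases and GAAA again on either strand, the core of the element through which interferon acts; capitals mark that match.
Slfn5, chr11:82951852-82952101, plus strand: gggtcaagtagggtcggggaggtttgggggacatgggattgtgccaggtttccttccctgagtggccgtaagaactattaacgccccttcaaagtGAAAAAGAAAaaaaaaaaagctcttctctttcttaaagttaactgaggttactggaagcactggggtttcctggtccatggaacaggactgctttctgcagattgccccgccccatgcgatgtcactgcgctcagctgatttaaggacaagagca
The same pattern was in 2.98% of all windows. Of the other motifs searched on both strands, GGGCGG was in 6 of the 10 member windows against 32.7% of all windows, CCAAT in 3 against 33.8%, CACGTG in 1 (Trim25) against 6.02%, and TATAAA in 0 against 12.4%. None of these motifs is contained in another. A match describes the letters of the window and is no evidence of binding.

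Values are log2 signals relative to the 75th percentile of each array, so 0 is the level of that percentile, and a difference is Jmjd3-/- minus wild-type with its moderated standard error (SE, n = 2 per genotype). The 4 arrays share 1 slide. Each array had 59.8% to 63.0% of its 41174 probes well above background, with 0 saturated spots. The single Kdm6b probe read 0.35 (replicate 1) and 0.11 (replicate 9) in Jmjd3-/- against 2.15 (replicate 3) and 2.23 (replicate 4) in wild-type. No source used here says which exons the mutation removes, so this probe may check nothing about the labels. Of the posterior markers listed for this tissue, 9 of 9 were well above background on all 4 arrays, and the head markers Otx2 and Six3 were too dim to test. Over all genes 5 passed an adjusted p of 0.05 (limma, Benjamini-Hochberg), 0.0368% of those tested, and none was a member; 10 of 10 members had an unadjusted p under 0.05, as had 11.1% of all genes.

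Of the members 5 were higher in the Jmjd3-/- embryos and 5 were lower, and at each of the 10 the genotypes did not overlap. Genotypes did not overlap in 46.7% of all tested genes, and the members were chosen on this contrast. Of the 10, 8 were at least 2-fold apart without overlap, against 2.77% of all genes (0.802% higher and 1.97% lower). This count takes Slfn5 at its fitted value, although it was below background in wild-type. By the fitted values 10 were at least 1.5-fold apart, against 6.92% of all genes, and 5 at least 3-fold, against 1.02%. No member lay between 1.88-fold and 2.11-fold, which are Prkca and Trim25. The size of the difference ran from 0.88 to 3.40 with a median of 1.44, beside a median of 0.12 over all genes. The wild-type arrays lay 0.02 to 0.22 apart at the members, and the Jmjd3-/- arrays 0.01 to 0.67 apart, with medians of 0.08 and 0.17 that were close to those of all genes, 0.08 and 0.16.

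**Figure D1:**
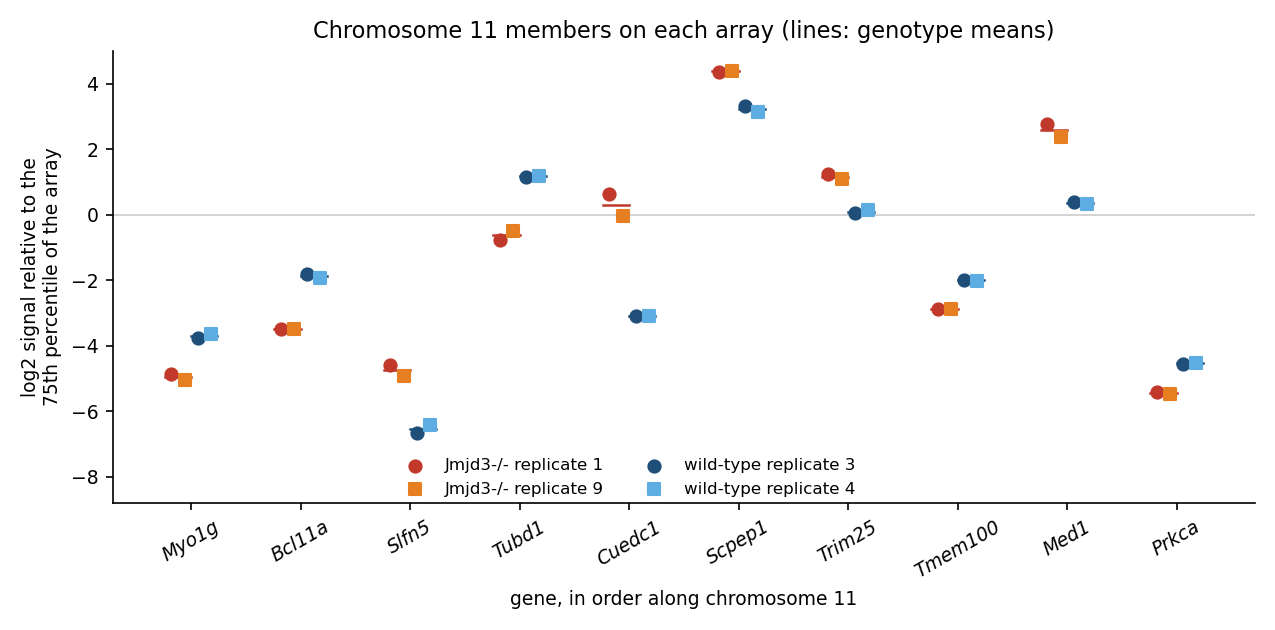
Log2 signal relative to the 75th percentile of the array (y axis) for the probe used for each of the 10 members, in gene order along chromosome 11 (x axis). Points are single arrays and short lines are genotype means; at each member both Jmjd3-/- arrays lie on the same side of both wild-type arrays, with 5 members higher and 5 lower.

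Among the higher members, Cuedc1 read 0.63 in Jmjd3-/- replicate 1 and −0.04 in replicate 9, whereas wild-type replicates 3 and 4 read −3.11 and −3.10. (In the values that follow, arrays keep this order.) Both Jmjd3-/- arrays were far above the wild-type arrays, a difference of 3.40 (SE 0.25), or 10.5-fold. The second Cuedc1 probe, A_52_P479647, read 0.06, −0.56, −2.70 and −2.86 on the same arrays, a difference of 2.53. Before normalisation A_51_P379409 gave 933 and 562 intensity units on the Jmjd3-/- arrays and 69.2 and 73.4 on the wild-type arrays. Jmjd3-/- replicate 1 was above replicate 9 with both probes, by 0.67 and 0.62, which was the widest spacing of the Jmjd3-/- arrays at any member.

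Med1 had 3 probes above background on all 4 arrays, and they gave different differences. The probe used for the gene, A_51_P324082, read 2.76 and 2.38 in Jmjd3-/- and only 0.39 and 0.32 in wild-type, a difference of 2.22 (SE 0.16). With A_52_P176300 the genotypes overlapped, with 1.44 and 1.13 against 1.18 and 1.28, a difference of 0.05. With A_52_P301166 the sign was opposite, with −2.02 and −1.76 against −1.63 and −1.54, a difference of −0.30. A_51_P324082 and A_52_P301166 carry 1 accession, NM_013634, and A_52_P176300 carries NM_134027, and the table assigns both accessions to Med1. As the mean of its probes Med1 differed by 0.66, so its large difference rests on 1 probe of 3.

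Trim25, the ubiquitin ligase that activates the RNA sensor RIG-I, had a similar disagreement. Probe A_51_P212854 read 1.24 and 1.08 in Jmjd3-/- beside 0.04 and 0.13 in wild-type, a difference of 1.08 (SE 0.10). Probe A_52_P654161, designed to the same accession and above background on all arrays, read −3.40 and −3.39 against −3.45 and −3.6, a difference of 0.13. The genotypes did not overlap with either probe, but with the second they lay 0.05 apart at their nearest. As the mean of both probes Trim25 differed by 0.61.

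Scpep1 was higher with both probes, by different amounts. A_51_P118417 read 4.35 and 4.38 in the Jmjd3-/- arrays and 3.32 and 3.13 in the wild-type arrays, a difference of 1.14 (SE 0.10). A_51_P118415 read 1.45 on both Jmjd3-/- arrays and 1.02 and 0.84 in wild-type, a difference of 0.53. The Jmjd3-/- arrays differed from each other by no more than 0.03 with either probe.

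Slfn5, an interferon-induced Schlafen gene, was well above background in both Jmjd3-/- arrays, at −4.61 and −4.92, and in neither wild-type array, at −6.67 and −6.44. With the wild-type arrays set to their dimmest signal that still counted as well above background, it was at least 1.71-fold higher in Jmjd3-/-. The fitted difference, 1.79 (SE 0.16), is no bound. A probe can read above that dimmest signal and still not count as well above background, so folds given as at least a value, here and below, are approximate. In intensity units its signal was 24.8 and 19.1 against 5.9 and 7.2, close to the bottom of the scale. Its second probe, A_51_P413359, was not well above background on any array. With normexp background correction, which compresses dim signals, the Slfn5 difference was 0.34.

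Among the lower members, Tubd1 read −0.77 and −0.51 on the Jmjd3-/- arrays, well below the wild-type arrays at 1.16 and 1.19. That is a difference of −1.81 (SE 0.12), or 28.5% of the wild-type level. Tubd1 has 1 probe, which was bright on every array, with 355 and 406 intensity units against 1338 and 1426. Over the alternative ways of processing its difference ran from −1.94 to −1.67.

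Bcl11a was lower with both probes, which share 1 accession. A_51_P263004 read −3.51 and −3.50 in the Jmjd3-/- arrays and −1.82 and −1.93 in the wild-type arrays, a difference of −1.63 (SE 0.08). A_51_P262998 read −4.47 and −3.94 against −2.26 and −2.14, a difference of −2.0. By p from the limma fit Bcl11a had rank 8 of 13583 genes, the first of the members, whose ranks ran to 41. With normexp the difference was −0.94.

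Myo1g read −4.87 and −5.05 in the Jmjd3-/- arrays and −3.78 and −3.65 in the wild-type arrays, a difference of −1.25 (SE 0.11) with its 1 probe, and −0.41 with normexp. Markers of blood were mostly lower too: of 5 tested macrophage and white blood cell markers 4 were lower, and their summed signal was 0.772 and 0.850 times the array's 75th percentile on the Jmjd3-/- arrays, below 1.53 and 2.77 on the wild-type arrays. Most of those wild-type sums is Pf4, a platelet gene, with 1.22 and 2.44. Without it the other 4 summed to 0.362 and 0.224 in Jmjd3-/- and 0.311 and 0.334 in wild-type, which overlap, and Csf1r, the macrophage receptor gene, differed by 0.80 (SE 0.58) with overlap. Of 7 primitive erythroid markers 6 were lower, with sums of 313 and 441 against 470 and 595. Ptprc, the pan-leukocyte marker, was too dim to test, and every other marker of these lists was tested. Their part in the Myo1g and Bcl11a differences was not tested. In bulk samples fewer cells of a type and less RNA per cell cannot be told apart.

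Tmem100 read −2.90 and −2.88 in the Jmjd3-/- arrays and −2.0 and −2.02 in the wild-type arrays, a difference of −0.88 (SE 0.07), and −0.56 with normexp. Pairs of arrays of 1 genotype were 0.03 apart at most. Of 7 endothelial markers 6 were lower, by a median over the list of −0.12, with sums of 10.4 and 9.89 on the Jmjd3-/- arrays beside 12.3 and 12.1 on the wild-type arrays. Without Emcn, the brightest of them, the other 6 summed to 5.44 and 4.28 in Jmjd3-/- and 5.07 and 5.01 in wild-type, which overlap. Their part in the Tmem100 difference was not tested.

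Prkca read −5.43 and −5.48 in the Jmjd3-/- arrays, the second of which was not well above background, and −4.56 and −4.52 in the wild-type arrays. The difference was −0.91 (SE 0.07) with its 1 probe, and −0.25 with normexp. Tmem100 and Prkca are the 2 members under 2-fold.

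**Figure D2:**
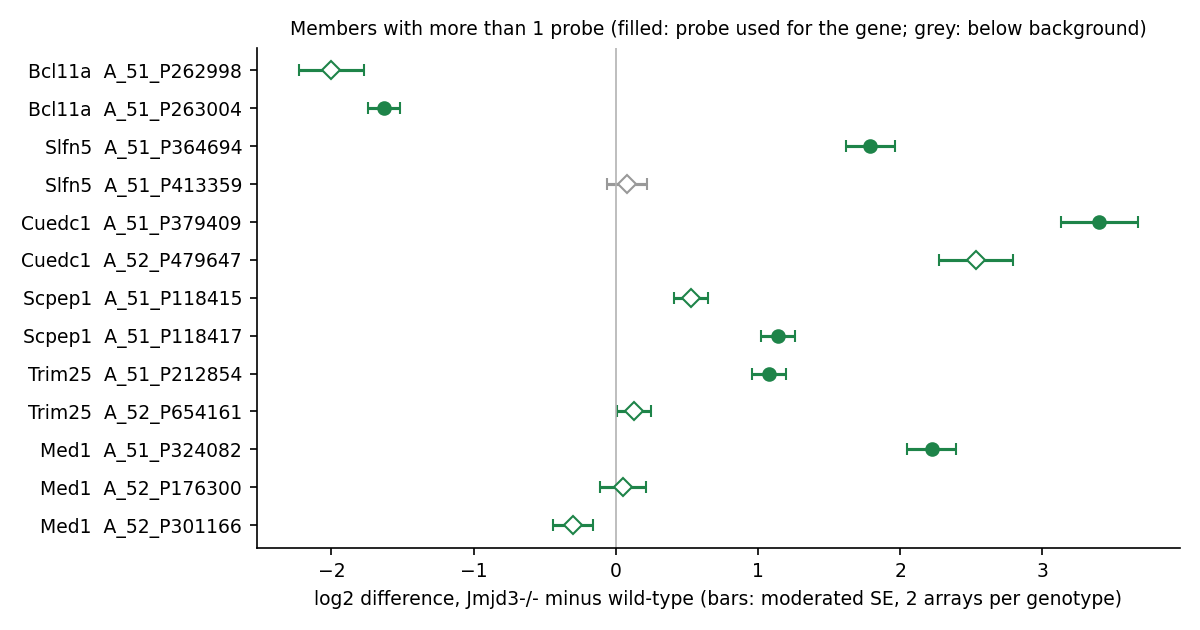
Log2 difference, Jmjd3-/- minus wild-type (x axis), of every probe of the 6 members with more than 1 probe (y axis). Bars are moderated SEs from a fit over all probes with 2 arrays per genotype, filled points mark the probe used for the gene, open diamonds its other probes, and grey marks a probe below background; the probes of Cuedc1 and Bcl11a lie on the same side far from 0, while those of Med1 run from −0.30 to 2.22 and those of Trim25 from 0.13 to 1.08.

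Of the members 4 had 1 probe and 6 had at least 2. Over all tested genes that were at least 2-fold apart without overlap and had a second probe above background, members left out, there were 54, and in 49 of them the second probe had the same sign. In 43 of the 54, 79.6%, the second probe also separated the genotypes without overlap, and in 43 its log2 difference was at least 0.5 times that of the first. Among the 5 members that could be set beside this, the second probe by brightness had the same sign in each. It also separated the genotypes without overlap in each but Med1. It reached 0.5 times the size in Cuedc1 and Bcl11a and not in Scpep1, Trim25 and Med1. Probes of 1 gene read the same 4 RNA samples and are not replicates.

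Along the chromosome, the tested genes were numbered in the gene order of the GRCm38.p6 table, which served for order alone because the array files name another build. Kdm6b was gene 415 of 1146. Myo1g and Bcl11a lay before it, at 66 and 120. The other 8 members lay after it: Slfn5 at 626, Tubd1 at 664, Cuedc1 at 687, Scpep1 at 692, Trim25 at 695, Tmem100 at 699, Med1 at 788 and Prkca at 975. The nearest member, Slfn5, was 211 tested genes from Kdm6b, and 5 members from Tubd1 to Tmem100 fell within 36 tested genes. All 5 higher members were in the stretch from Slfn5 to Med1, which also held the lower genes Tubd1 and Tmem100.

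Members stood among neighbours that mostly differed little, as did most tested genes. Of the 37 other tested genes that were 1 of the 2 nearest on either side of a member, 33 had a log2 difference under 0.5 in size. The median size over the 37 was 0.10, beside 0.12 over all genes, and the share of all genes under 0.5 was not counted. The genotypes did not overlap at 21 of the 37, a larger share than the 46.7% of all genes. Of the 37, 2 were at least 2-fold apart without overlap, a larger share than the 2.77% of all genes but only 2 genes. These were Unc45b, a chaperone of muscle myosin next to Slfn5, at −1.45 (SE 0.43), and Ccdc182, the second gene after Cuedc1. Ccdc182 was not well above background in either Jmjd3-/- array and was at least 4.46-fold lower there.

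Tubd1 at −1.81 stood between Rps6kb1, the S6 kinase gene, at 0.06 and Vmp1, an autophagy gene, at 0.07. Cuedc1 at 3.40 stood between Vezf1 at −0.03 and Mrps23 at −0.23. Med1 at 2.22 lay between Fbxl20 at 0.46 and the kinase gene Cdk12 at 0.04. Among other nearest genes, Akap1 next to Scpep1 differed by −0.16, and Coil and Dgke on either side of Trim25 by 0.10 and −0.43. Pctp and Mmd on either side of Tmem100 differed by −0.06 and 0.12, Papolg next to Bcl11a by 0.06, Purb and Ccm2 around Myo1g by −0.11 and −0.05, and Psmd12 and Cep112 around Prkca by −0.07 and −0.15. Bcl11a and Scpep1 each also have a nearest gene with a clone name.

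**Figure D3:**
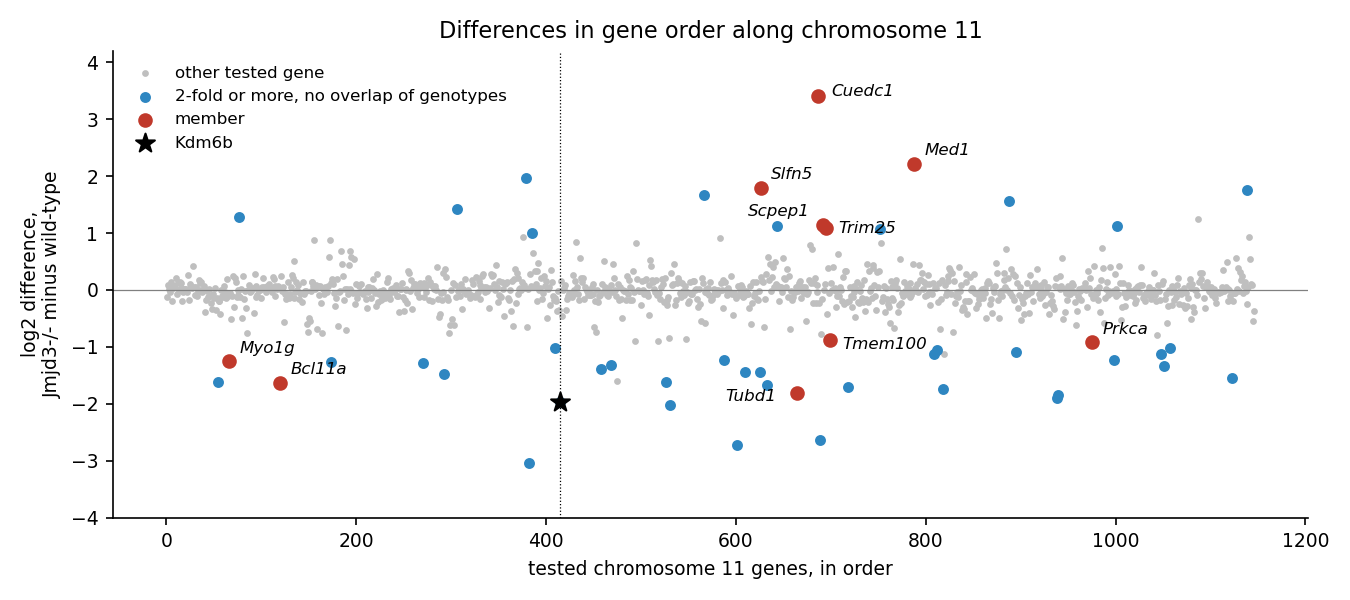
Log2 difference, Jmjd3-/- minus wild-type (y axis), of the 1146 tested chromosome 11 genes in order (x axis, gene number). Red points are the members, blue points the other genes at least 2-fold apart without overlap, and grey points the rest. The star and dotted line mark Kdm6b at gene 415. Single genes stand out of a band near 0 on both sides of Kdm6b, but not evenly. Some blocks of 50 genes hold 0 that are at least 2-fold apart without overlap, and the 100 genes from Evi2 to Mmd hold 11.

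In consecutive blocks of 50 tested genes, the share at least 2-fold apart without overlap was highest from Evi2 to Car4, with 6 genes or 12.0%, and next from Usp32 to Mmd, with 5 genes. These are fitted values: Evi2 and Slfn5 in the first block were below background in 1 genotype, with bounds under 2-fold. Counting only genes above background on at least 1 array of both genotypes, each of these blocks had 4. From the second block this drops Ccdc182, although its bound was 4.46-fold, so the bounds would place the second block above the first. The second block holds 5 members, 4 of them among its 5 genes at least 2-fold apart without overlap, and the first holds 1 member, Slfn5. The other blocks had shares, again of all such genes, from 0% to 6.0%, and the block that holds Kdm6b had 4.0%. From Slfn5 to Med1, 5 of 156 genes that are not members were at least 2-fold apart without overlap, 3.21%. Over the genes before Kdm6b that share, members left out, was 2.43%, over those after it 3.87%, and over the 50 on each side of it 5.0%. The median size of the difference was 0.161 from Slfn5 to Med1 and 0.119 over chromosome 11.

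Chromosome 11 as a whole had 47 of 1146 genes at least 2-fold apart without overlap, 4.10%, 15 higher and 32 lower. Shares on the other 19 chromosomes ran from 1.13% on chromosome 8 to 4.74% on chromosome 14. Without the members the count was 39, or 3.43%, and chromosome 11 went from rank 2 to rank 6. Some fall is built in, since genes were left out of this chromosome alone. Ordered by p instead, a count chosen after the data were seen, 22 of the 100 genes with the smallest p in the genotype comparison lay on chromosome 11, 1.92% of its tested genes beside 0.736% of all. That was the largest share of the 20 chromosomes, followed by 1.61% on chromosome 6. The 22 are the 10 members, Kdm6b and 11 others, so 11 of them were singled out by the choice of members or by the mutation. Chromosome 6 also had 11 such genes, among only 684 tested. With the members and Kdm6b left out, chromosome 11 would not have the largest share. That drop is built in, because top-ranked genes are taken from chromosome 11 alone. It does not tell whether the chromosome holds more such genes than others. Without Jmjd3-/- replicate 9 the 22 were 13, or 1.13%, and the 2-fold share was 5.15% on chromosome 11 against 5.13% over all genes.

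**Figure D4:**
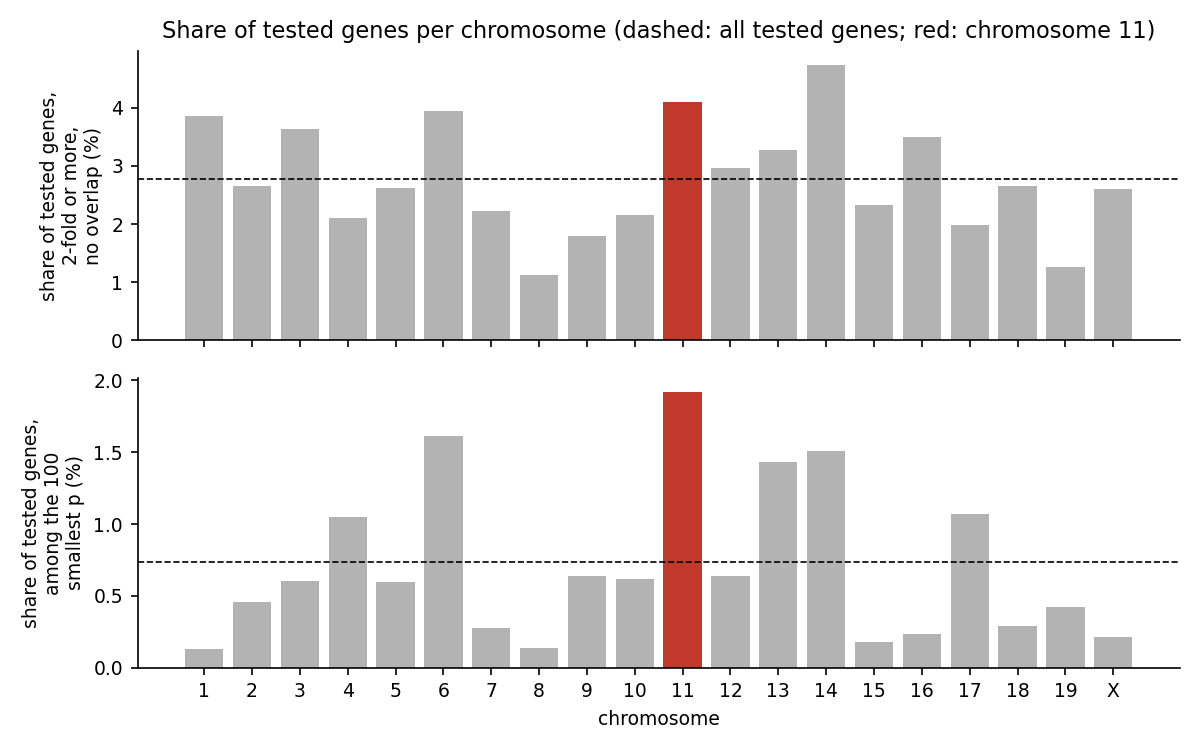
Share of the tested genes of each chromosome (x axis) that were at least 2-fold apart without overlap of the genotypes (upper bars, percent) or among the 100 smallest p (lower bars, percent). Dashed lines are the shares over all genes, 2.77% and 0.736%. Chromosome 11, in red and with the members and Kdm6b included, has 4.10% and 1.92%.

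Arrays of 1 genotype were also set beside each other. The Jmjd3-/- arrays were at least 2-fold apart at 26 of its genes, 2.27%, beside 3.17% of all genes, and the wild-type arrays at 12, 1.05%, beside 1.16%. These shares were not compared by a test.

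Beside the members, the 10 chromosome 11 genes with the largest differences without overlap, Kdm6b left out, were as follows. Myh3, an embryonic myosin heavy chain gene, differed by −3.05 (SE 0.32) and was well above background in 1 of 2 Jmjd3-/- arrays. Evi2, 186 tested genes after Kdm6b, was at least 1.37-fold lower and Rsad1 at least 1.04-fold lower, since neither was above background in Jmjd3-/-, and Ccdc182 is given above. Serpinf2, the plasmin inhibitor gene, differed by −2.02 (SE 0.47), the atrial myosin gene Myl4 by −1.89 (SE 0.50), the platelet integrin gene Itgb3 by −1.84 (SE 0.32) and the keratin gene Krt20 by −1.73 (SE 0.21). Dnah9 and Foxk2 were higher, by 1.96 and 1.75, but their Jmjd3-/- arrays lay 2.30 and 3.40 apart. Several of these were more uneven between arrays of 1 genotype than any member: the wild-type arrays lay 0.84 apart at Myh3, 0.93 at Serpinf2 and 1.33 at Myl4, against at most 0.22 at the members. The members all had ranks of 8 to 41 by p, which go with a small spread within genotypes. These genes were taken by size alone, with ranks up to 4908 at Foxk2, so the contrast in evenness is built into the choice.

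Some genes had a pattern over the 4 arrays much like the members, measured by the Euclidean distance between values centred on each gene's mean. The mean profile of the 5 higher members was nearest to that of Amph on chromosome 13, at a distance of 0.217 and a difference of 2.14, then Rab32 on chromosome 10 at 0.306 and Krt86 on chromosome 15 at 0.312. The mean profile of the 5 lower members was nearest to Flrt2 on chromosome 12, at 0.138 and a difference of −1.22, then Vtn, the vitronectin gene on chromosome 11, at 0.158 and Slc10a4 on chromosome 5 at 0.168. Of these 6 genes 5 lie on other chromosomes, as do most tested genes, since chromosome 11 holds 1146 of 13583.

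Relatives and pathway partners of the members were described from 10 lists, of which 109 genes were tested. None passed the adjusted threshold (limma), 9 had an unadjusted p under 0.05, 8.26% beside 11.1% of all genes, and 3 were at least 2-fold apart without overlap, 2.75% beside 2.77% of all genes. Of the other Schlafen genes, 7 were on the array and 0 were bright enough to test. In the RIG-I and interferon list, to which Slfn5 and Trim25 are related, 13 of 17 genes were higher, with a median difference of 0.19 beside −0.01 over all genes, and 0 were 2-fold apart. Irf1 differed by 0.30 (SE 0.14), Irf3, which acts below RIG-I, by −0.34 (SE 0.20), and the antiviral gene Zc3hav1 by −0.29 (SE 0.13).

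Of 28 other Mediator genes 10 were higher and 18 lower, with a median of −0.04; Med12 differed by 0.47 (SE 0.17), Med23 by 0.25 and Med31, also on chromosome 11, by −0.17. Of 15 tubulin genes 8 were higher and 7 lower, with a median of 0.02. The neuronal Tubb3 differed by −1.34 (SE 0.31), Tubb2b by −0.39 and the gamma-tubulin gene Tubg2, on chromosome 11, by −0.49. Of 8 other protein kinase C genes 4 were higher and 4 lower, with Prkcq at −0.65, Prkcb at −0.50 and Prkcd at 0.32. Of 6 other class I myosins 5 were higher, with Myo1e at 0.37, Myo1h at 0.23 and Myo1c, on chromosome 11, at 0.16, whereas Myo1g was at −1.25.

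Of 14 partners and relatives of Bcl11a 5 were higher and 9 lower, with a median of −0.09; its paralog Bcl11b differed by −1.12 (SE 0.28), Mbd2 by −0.26 and Zfpm1 by −0.22. Of 15 genes of BMP and ALK1 signalling, the pathway above Tmem100, 7 were higher and 8 lower, with a median of −0.02. The ALK1 ligand gene Gdf2 was not above background in Jmjd3-/- and was at least 2.90-fold lower, Eng, a co-receptor, differed by −0.31 (SE 0.10) and Hey1 by 0.48 (SE 0.16). The 5 CUE domain genes ran from −0.14 at Tollip to 0.08 at Smarcad1, and the 1 tested serine carboxypeptidase beside Scpep1 differed by 0.01. Of the 109, 14 lie on chromosome 11, and 0 of these were 2-fold apart.

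The posterior markers were also uneven between genotypes: 8 of 9 were higher in Jmjd3-/-, by a median of 1.09, with sums of 90.7 and 62.0 on the Jmjd3-/- arrays, above 37.8 and 41.9 on the wild-type arrays. Cdx2 differed by 1.45 (SE 0.23), Cdx4 by 1.88 (SE 0.44) and Tbx6 by 1.54 (SE 0.35). The 2 head markers tested were lower, with sums of 0.279 and 1.11 against 2.69 and 3.24, of which Lhx2, at a difference of −2.57 (SE 0.74), made up most; the genotypes overlapped at the other. In each of these markers the Jmjd3-/- arrays lay further apart, 0.55 at Cdx2, 1.19 at Cdx4, 0.92 at Tbx6 and 2.01 at Lhx2, than at 9 of the 10 members. These markers were named for their large differences. At the other posterior markers the Jmjd3-/- arrays lay 0.13 to 1.1 apart, which overlaps the 0.01 to 0.67 of the members. The part of such differences in tissue makeup in the values of the members was not tested.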

How the data were processed

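RNA of 4 samples was hybridised to 1-colour Agilent arrays. The scanner output comes from Agilent Feature Extraction 10.7.3.1, per the submitters' processing notes; per the file headers, the deposited processed intensity is corrected for background and not normalised between arrays. The deposited table of log2 values matched, within 0.01 at 99.9% of probes, the log2 processed signal less each array's 75th percentile and less the wild-type mean; its column medians ran from −0.02 to 0.055, and its scale, centring and direction are not stated. Each place on the 1 slide holds 1 array, so place and genotype cannot be told apart.

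Of 45018 spots, 1639 controls were left out. Spots of a probe were averaged on the log2 scale, giving 41174 probes, and each array's 75th percentile was subtracted. Accessions were matched to the RefSeq table of GRCm38.p6, which named 26690 probes by accession and 28 by synonym; the headers name build mm9, so that table gave gene order along chromosome 11 but no gene coordinates. Promoter windows carry the GRCm38.p6 coordinates of their own table. The probe with the highest mean stood for a gene, and genes entered the test where the scanner software called it well above background on the 2 arrays of at least 1 genotype, which left 13583. The genotype fit used limma (version 3.58.1, R 4.3.3; lmFit, eBayes, no covariate, Benjamini-Hochberg), tested on simulated data. The 13 alternatives changed the scaling, background correction, filter, probe summary, outlier spots or variance trend, used the deposited table, or left out 1 array.

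The members and lists were chosen with earlier results of these data known. The genes named are Kdm6b, the members, their nearest tested neighbours, the 10 largest other differences on chromosome 11 without overlap, the 3 nearest profiles per direction and up to 3 genes per list; clone names are counted only, and some items are not reported here. The files hold no mean spot signal, so the normexp alternative used the median spot and background signals (offset 50).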

Additional observations from a re-analysis of the deposited data

How the results depend on the processing

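The number of arrays limits the precision, and dim probes lie near the floor of the scale. Over 127 values of members under the 13 alternatives no sign changed, but for many of these values none could. Changing the filter, eBayes with trend and the deposited table leave a tested member's difference as in the main fit. Leaving out 1 array cannot change a sign where the genotypes do not overlap, as at every member. Slfn5 and Prkca were not tested under the filter on all 4 arrays, nor Prkca without outlier spots. The count of members at least 2-fold apart without overlap, 8 beside 2.77% of all genes, was 5 with normexp background correction (0.758% of all genes), 5 when the probes of a gene were averaged (2.80%), and 8 without any 1 array (2.17% to 5.13%). The 47 such genes of chromosome 11 (4.10%) were 23 with normexp (2.01% against 0.758% of all genes), 75 with no filter on dim probes (5.18% against 3.75%), 88 at 1.5-fold (7.68% against 6.92%) and 20 at 3-fold (1.75% against 1.02%), and 41 to 59 over arrays left out. The cause was not tested, apart from the fold itself, but normexp with its offset compresses dim signals by construction. In the genotype comparison the 5 genes past the adjusted threshold were 0 with quantile normalisation, 1 with normexp, 0 with no filter on dim probes, 0 with a filter on all 4 arrays and 3 with eBayes with trend. They ranged from 0 to 176 over arrays left out: 0 without Jmjd3-/- replicate 1 or without either wild-type replicate, and 176 without Jmjd3-/- replicate 9, where 4 members passed, Bcl11a (adjusted p = 0.0491, limma) and Cuedc1, Med1 and Tubd1 (adjusted p = 0.0465 each, limma). An array left alone in its genotype is assumed to vary like the other genotype. The 22 chromosome 11 genes among the 100 smallest p, a count chosen after the data were seen, were 13 without Jmjd3-/- replicate 9 and ranged from 13 to 22 over arrays left out. The highest share of any block was 16.0% in blocks of 25, from Septin4 to Mmd, where 3 of the 4 such genes are members, and 11% in blocks of 100, from Evi2 to Mmd, where 5 of the 11 are. Counting only genes above background on at least 1 array of both genotypes, these blocks had 3 (12.0%) and 8 (8.0%). In blocks of 25 the share of 12.0% was shared by the blocks from Myocd to Aurkb and from Ormdl3 to Krtap31-1. No paired analysis was possible because the genotypes share no replicate numbers.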
